A study of Chlamydomonas reinhardtii with 31 samples.

Results

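Of the 17301 genes listed for the green alga Chlamydomonas reinhardtii, 63 had transcript levels that dipped within 2 h of nitrogen removal and were back at or above their starting level by 48 h. The 63 genes were selected on measured values: at least 5 FPKM (a read number scaled to gene length and library size, the unit taken for the deposited values) at 0 h, a value at 2 h of at most 1/2.5 of that at 0 h, and a value at 48 h of at least that at 0 h, each in both strains of the first library set and computed on FPKM + 1. Of the 6895 genes with at least 5 FPKM at 0 h in both strains, 1160 met the condition at 2 h in both, and 63 of these (5.43%) also met the one at 48 h. The remaining 1097 (94.6%) did not: 63 of them met it in CC-4349 alone and 12 in sta6 alone. All 63 genes passed the filter on low values in every test given here.

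The study followed a starchless mutant through nitrogen starvation by RNA sequencing of total RNA. Cells were grown in light in TAP, an acetate-containing medium, then washed and resuspended in TAP lacking ammonium chloride, so every sample after transfer, the controls included, was starved of ammonium. The first library set held 16 samples: sta6 (CC-4348), the starchless mutant, and CC-4349, its comparison strain, each at 0, 0.5, 2, 4, 8, 12, 24 and 48 h. The second held 15 samples: sta6, the rescued strains STA6-C2 (CC-4565), STA6-C4 (CC-4566) and STA6-C6 (CC-4567), and CC-4349, each at 0.5, 4 and 48 h. Each combination of strain, time and set was 1 sample, each rescued strain is a line of its own, and no source used here ties samples to separate cultures.

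When nitrogen runs out, Chlamydomonas cells stop dividing, take apart much of their photosynthetic and ribosomal protein, and store carbon as starch and triacylglycerol. STA6 encodes the small subunit of ADP-glucose pyrophosphorylase, the enzyme that supplies the glucose donor for starch, and cells without it make no starch. Transfer experiments of this kind record both the response to the loss of nitrogen and whatever the wash and fresh medium bring at the first times. The files and the reference used here give the 63 genes as locus IDs only, with no name or product, so no function is given for any of them. No ID is paired with STA6 either, so the strain labels were not checked against it.

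The 47 deposited columns had sums of 552025 to 889042 FPKM, with 5.68% to 11.5% of the genes at 0. Read depth is unknown, so no counting interval can be set. FPKM gives a transcript's share of a library: fewer cells expressing a gene and less of its RNA per cell cannot be told apart. Among low values (under 0.5 FPKM), the share of genes whose ratio between columns lay within 0.01 (log2) of the commonest ratio had a median of 4.78% between first-set sta6 and first-set CC-4349 columns, against 14.5% within first-set sta6 and 23.4% within first-set CC-4349. Levels of single genes are therefore compared between strains only in the second set.

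The values that chose the genes are given first, as a description. The fold of 0 h over 2 h ran from 2.58 to 13.5 in sta6 (median 3.66) and from 2.53 to 13.6 in CC-4349 (median 3.48). The fold of 48 h over 0 h ran from 1.00 to 4.96 in sta6 (median 1.46) and from 1.00 to 4.22 in CC-4349 (median 1.96), and that of 48 h over 2 h had medians of 5.39 in sta6 and 7.77 in CC-4349. Together the 63 genes held 0.285% of all FPKM in sta6 at 0 h, 0.0733% at 2 h and 0.425% at 48 h, and 0.270%, 0.0630% and 0.523% in CC-4349.

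Just inside the limit on the dip was Cre02.g137950.t1.2, whose smaller fold was 2.53, and just outside it was Cre08.g378850.t1.1 with 2.48. At the recovery limit, Cre05.g244236.t1.1 lay inside with a smaller 48 h over 0 h fold of 1.00 and Cre23.g768000.t1.1 outside with 0.998. At the limit on level, Cre13.g572272.t1.1 lay inside with 5.05 FPKM and Cre06.g304600.t1.1 outside with 4.42. The runs of Cre13.g572272.t1.1 differed: in sta6 they gave 8.59 and 1.80 FPKM at 0 h and 2.39 and 0 FPKM at 2 h. For 62 of the 63 genes, both 2 h runs lay below both 0 h runs in both strains, but not for this one. The scaling of the libraries matters as well: after columns were set to equal medians the same rule chose 68 genes, of which 33 were among the 63, and after quantile normalization it chose 85, of which 51 were.

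Between the times of the selection, the genes were mostly below their start at 0.5 h, more so in CC-4349, and most were back at it by 8 h. The median level over the 63 genes at 0, 0.5, 2, 4, 8, 12, 24 and 48 h was 14.4, 10.9, 2.69, 11.1, 22.9, 21.5, 21.9 and 19.5 FPKM in sta6. In CC-4349 it was 14.0, 7.89, 3.15, 11.2, 22.9, 29.2, 33.0 and 35.0 FPKM. The low at 2 h and the return at 48 h were set by the selection. The median was highest at 8 h in sta6 and was still higher at 24 h than at 12 h in CC-4349. At 0.5 h, 24 genes lay above their 0 h level in sta6 (38.1%, against 46.3% of the 6895 genes) and 6 in CC-4349 (9.52%, against 50.3%), with median ratios to 0 h of 0.783 in sta6 and 0.531 in CC-4349. The selection used the same 0 h values and favoured high ones, so shares and ratios below those of other genes can be partly built in. Each of these times is 1 sample per strain, so this spread between genes is no error of the time.

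**Figure D1:**
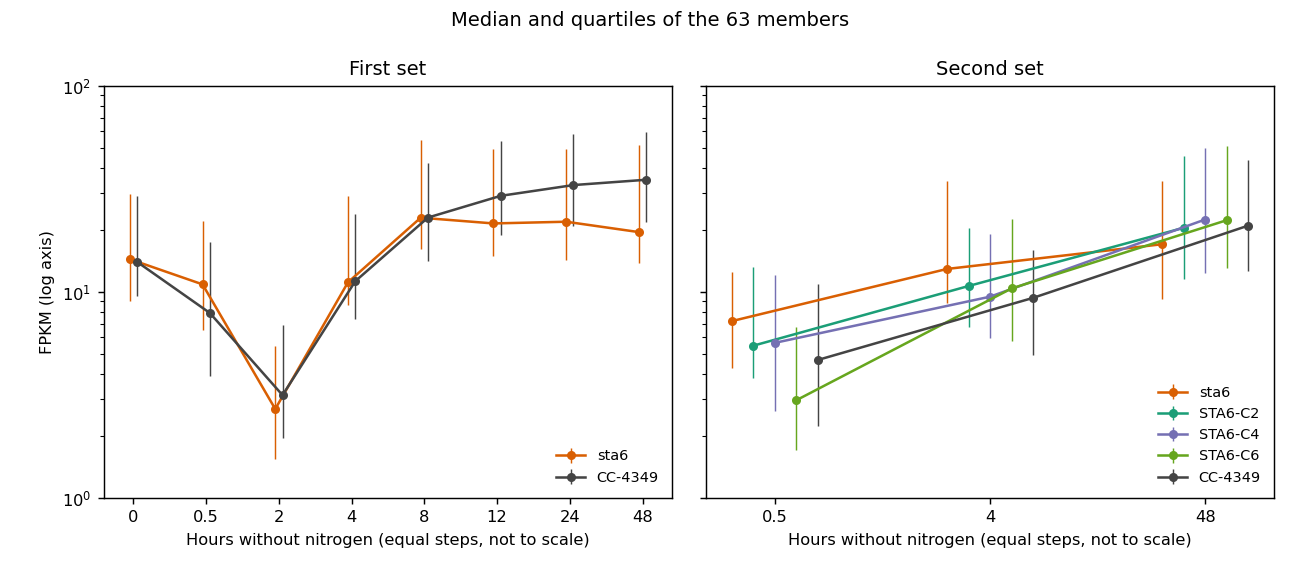
Median FPKM of the 63 genes (points, with vertical lines over the quartiles of the genes) against hours without ammonium (spaced evenly, log axis for FPKM), with sta6 and CC-4349 of the first set on the left and the 5 strains of the second set on the right. The first-set medians drop to 2.69 FPKM in sta6 and 3.15 FPKM in CC-4349 at 2 h, and at 48 h stand at 19.5 FPKM in sta6 and 35.0 FPKM in CC-4349.

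Relative to 0 h, the median log2 difference of the 63 genes at 0.5, 2, 4, 8, 12, 24 and 48 h was -0.34, -1.87, 0.13, 0.89, 0.70, 0.64 and 0.55 in sta6. In CC-4349 it was -0.84, -1.80, -0.28, 0.50, 0.80, 0.84 and 0.97. Over the 6895 genes with at least 5 FPKM at 0 h, the same medians stayed between -0.18 and -0.05 in sta6 and between 0.01 and 0.24 in CC-4349. In these samples the return came earlier in sta6: the first time after 2 h at or above the 0 h level was 4 h for 34 genes, 8 h for 20, 12 h for 2, 24 h for 2 and 48 h for 5. In CC-4349 it was 4 h for 18 genes, 8 h for 30, 12 h for 9, 24 h for 5 and 48 h for 1. At 4 h, 29 of the 63 genes were below 0 h in sta6, against 51.8% of the 6895 genes, and 45 in CC-4349, against 45.9%. The 0 h level and the return by 48 h were part of the selection. With 1 sample per strain and time, the difference between strains was not tested.

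The time of the highest level differed as well. In sta6 it was 0.5 h for 1 gene, 8 h for 39, 12 h for 7, 24 h for 7 and 48 h for 9, and in CC-4349 it was 12 h for 16 genes, 24 h for 10 and 48 h for 37. The highest level came earlier in sta6 than in CC-4349 for 50 of the 63 genes, later for 2 and at the same time for 11, against 27.9%, 33.4% and 38.6% of the 6895 genes. The selection kept 0 and 2 h from being the highest time for the 63 genes but not for the 6895. These shares are therefore not a like baseline. Between 8 and 24 h, 15 genes were higher at 24 h and 48 lower in sta6 (median log2 difference -0.30), while 61 were higher and 2 lower in CC-4349 (median 0.38). Of the 6895 genes, 41.6% were higher at 24 h than at 8 h in sta6 and 41.7% in CC-4349. For 46 of the 63 genes (73.0%) the level at 24 h was below that at 8 h in sta6 and above it in CC-4349, against 18.9% of the 6895. Among paired runs, both 24 h runs lay below both 8 h runs for 31 genes in sta6, and above both for 47 in CC-4349. The runs of a time were taken as columns of 1 sample, and the same counts over the 6895 genes were not made. With 1 sample per strain and time, the difference between strains in the first set has no test.

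The 8 genes with the largest mean rise between 2 and 48 h over the 2 strains were Cre02.g093600.t1.1, Cre13.g583450.t1.1, Cre07.g328000.t1.1, Cre03.g183900.t1.1, Cre02.g093950.t1.1, Cre31.g779750.t1.1, Cre12.g528950.t1.1 and Cre13.g581900.t1.2. Cre02.g093600.t1.1 had 90.2, 6.86, 7.23, 11.3, 28.4, 35.2, 121 and 359 FPKM in first-set sta6 at 0, 0.5, 2, 4, 8, 12, 24 and 48 h. CC-4349 had 31.5, 2.11, 1.58, 3.40, 12.0, 21.2, 58.0 and 91.4 FPKM of it over the same times. Its level was already near its lowest at 0.5 h and was still increasing between 24 and 48 h in both strains. Cre13.g583450.t1.1 had 29.1, 25.1, 4.21, 12.6, 36.5, 52.5, 107 and 149 FPKM in first-set sta6 at 0, 0.5, 2, 4, 8, 12, 24 and 48 h. Its levels in CC-4349 were 26.8, 11.6, 6.11, 25.0, 53.6, 57.6, 70.9 and 88.1 FPKM at these times. This gene too was highest at 48 h in both strains, but at 0.5 h in sta6 it was still close to its 0 h level.

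Cre07.g328000.t1.1 had 55.5, 16.7, 5.57, 7.77, 11.1, 9.96, 40.9 and 91.4 FPKM in first-set sta6 at 0, 0.5, 2, 4, 8, 12, 24 and 48 h. CC-4349 had 30.1, 2.19, 1.30, 3.74, 11.7, 22.3, 40.0 and 46.8 FPKM of it over the same times. It stayed below its 0 h level until 48 h in sta6 and until 24 h in CC-4349, later than most of the genes. Cre02.g093950.t1.1 had 24.8, 19.4, 2.15, 18.3, 52.9, 44.3, 49.6 and 43.1 FPKM in first-set sta6 at 0, 0.5, 2, 4, 8, 12, 24 and 48 h. Its levels in CC-4349 were 21.3, 10.7, 5.83, 30.3, 61.1, 67.1, 67.5 and 62.1 FPKM at these times. This gene instead reached its starting level by 8 h in sta6 and by 4 h in CC-4349, and its levels changed little after 8 h in both strains.

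The other 4 peaked at 8 or 12 h in sta6. Cre03.g183900.t1.1 had 27.3, 10.5, 1.09, 18.9, 45.3, 45.0, 35.2 and 29.7 FPKM in first-set sta6 at 0, 0.5, 2, 4, 8, 12, 24 and 48 h. CC-4349 had 35.7, 8.44, 2.12, 12.3, 34.3, 45.7, 46.5 and 47.9 FPKM of it over the same times. In sta6 it peaked at 8 h and was close to its starting level again at 48 h. Cre12.g528950.t1.1 had 18.6, 21.0, 2.40, 21.8, 59.3, 46.7, 34.9 and 33.8 FPKM in first-set sta6 at 0, 0.5, 2, 4, 8, 12, 24 and 48 h. Its levels in CC-4349 were 22.1, 14.4, 4.30, 18.9, 43.3, 51.6, 56.2 and 56.3 FPKM at these times. Here sta6 was highest at 8 h and CC-4349 at 48 h. For Cre31.g779750.t1.1 the first-set values were 6.90, 3.41, 0.968, 8.76, 15.7, 16.6, 15.5 and 15.5 FPKM in sta6 and 6.66, 3.86, 0.778, 7.45, 19.1, 25.8, 25.8 and 23.7 FPKM in CC-4349 at the same times. For Cre13.g581900.t1.2 they were 8.24, 12.5, 1.41, 13.3, 33.4, 26.2, 25.4 and 21.2 FPKM in sta6 and 8.24, 9.06, 2.63, 10.2, 28.7, 33.9, 37.5 and 38.0 FPKM in CC-4349. Both genes were below 3 FPKM at 2 h in both strains and above their 0 h level at every time from 4 h on.

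**Figure D2:**
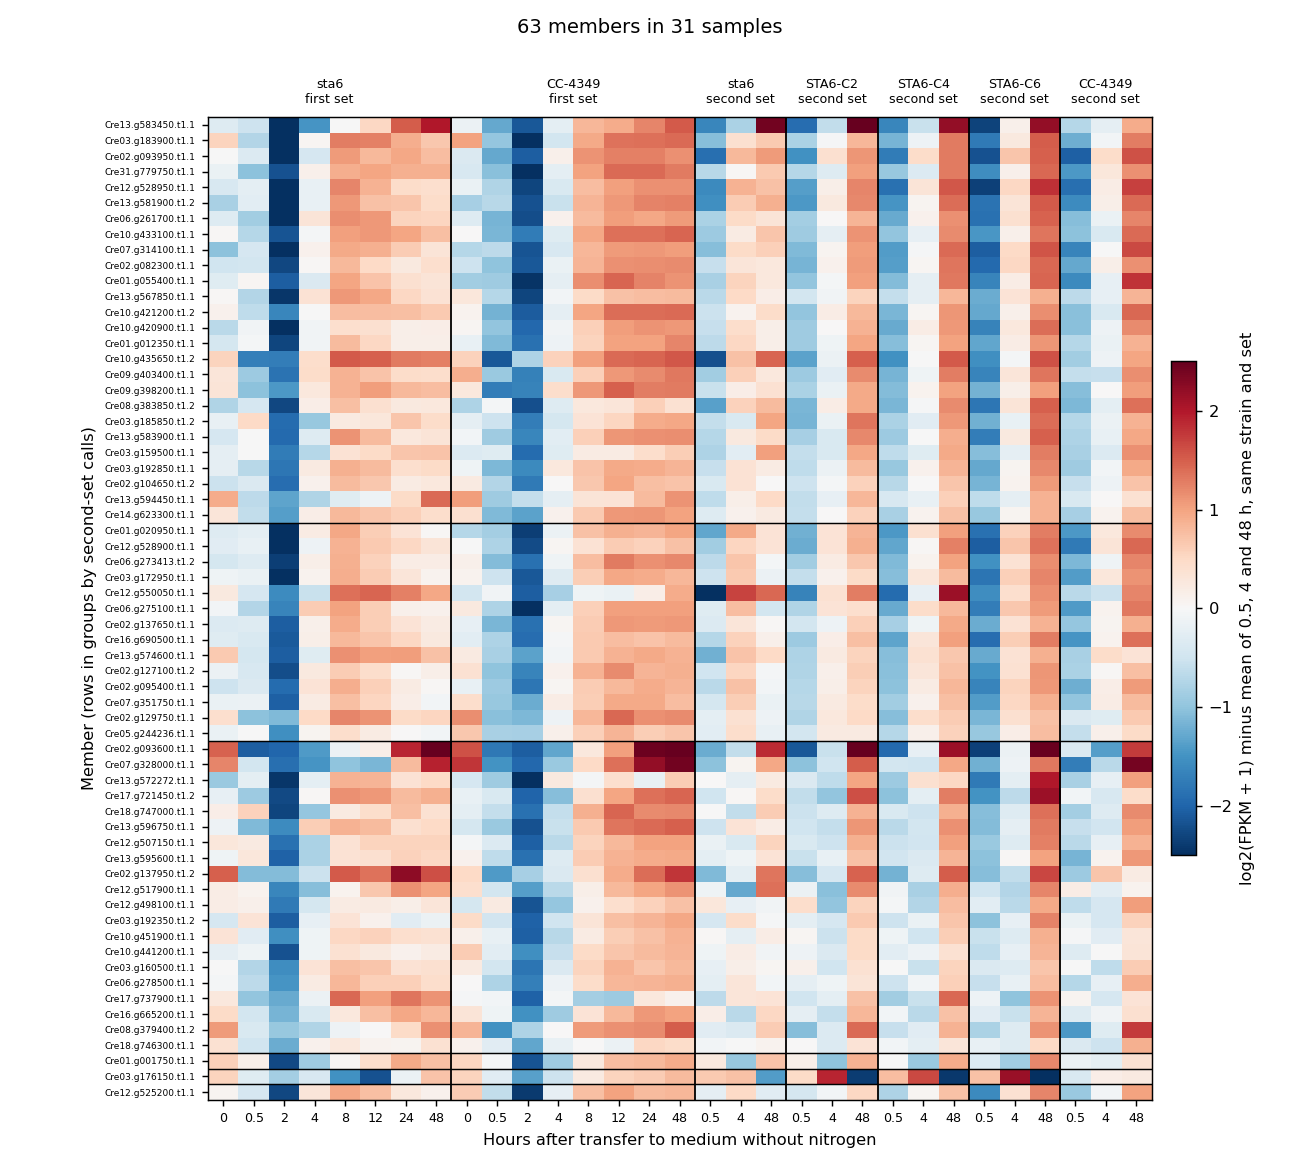
Heat map of the 63 genes (rows, grouped by which second-set differences were called) over all 31 samples (columns, by set, strain and hours), coloured by log2(FPKM + 1) minus the gene's mean over 0.5, 4 and 48 h of the same strain and set. The blue band at 2 h in the first set is the dip the genes were selected on, and in the second set levels run upward between 0.5 and 48 h in most rows, with Cre03.g176150.t1.1 going the other way.

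The second set, which the selection did not use, asked whether the late increase recurs in other libraries. It has no 0 or 2 h sample, so the dip itself cannot be seen there. Tests used limma on log2(FPKM + 1) with strain as a block, over 14982 genes with Benjamini-Hochberg adjustment, and a gene is called past an adjusted p of 0.05. The strains stand in for replicates of a time in these tests. The same threshold applies to every count below, and the comparisons of times share libraries with one another.

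Between 0.5 and 48 h nearly all of the genes rose. Of the 63, 62 were higher at 48 h than at 0.5 h, against 29.3% of all genes tested, and 1 was lower, against 32.2%. Their median log2 difference was 1.75, that of all genes -0.02. Of the genes that fell at 2 h but were not back at 48 h in the first set, 1091 were tested, and 246 of them were higher and 374 lower in this comparison. The largest rises were those of Cre02.g093600.t1.1, 3.78 ± 0.387 (log2, SE; limma, adjusted p = 1.01e-05), and Cre13.g583450.t1.1, 3.69 ± 0.36 (log2, SE; limma, adjusted p = 7.2e-06). Cre12.g550050.t1.1 and Cre12.g528950.t1.1 followed with 3.23 ± 0.487 and 3.22 ± 0.251 (log2, SE).

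Between 0.5 and 4 h, 40 of the 63 genes rose, against 12.7% of all genes tested, and 1 fell, against 9.73%. The median log2 difference was 0.95 for the 63 genes and 0.03 for all genes. The not-recovered genes were split evenly here, with 140 of 1091 higher and 141 lower. The largest rise was that of Cre02.g093950.t1.1, 2.43 ± 0.169 (log2, SE; limma, adjusted p = 2.87e-05). Levels at 0.5, 4 and 48 h of the second set were 3.02, 25.1 and 29.9 FPKM in sta6, 5.32, 22.6 and 37.8 in STA6-C2, 4.01, 21.9 and 40.1 in STA6-C4, 2.29, 23.1 and 41.1 in STA6-C6 and 2.40, 18.3 and 41.6 in CC-4349. All 5 strains thus lay between 18.3 and 25.1 FPKM at 4 h, above every 0.5 h value. Cre12.g528950.t1.1 was next with 2.22 ± 0.251 (log2, SE; limma, adjusted p = 0.000208). The gene that fell was Cre01.g001750.t1.1, -0.78 ± 0.202 (log2, SE; limma, adjusted p = 0.0174), which then rose by 1.62 ± 0.202 (log2, SE) between 4 and 48 h. Its second-set levels at 0.5, 4 and 48 h were 26.1, 10.9 and 36.5 FPKM in sta6, 25.1, 10.7 and 42.0 in STA6-C2, 24.1, 12.2 and 47.1 in STA6-C4, 15.7, 10.6 and 47.6 in STA6-C6 and 16.7, 15.5 and 24.3 in CC-4349. Its 4 h level was below both other times in every strain, so this gene was still low at 4 h in the second set. The number of genes called lower was 0 without sta6, STA6-C2 or STA6-C4 and 4 without CC-4349, where 16.9% of all genes were. In the first set Cre01.g001750.t1.1 was at 3.36 FPKM at 2 h and 10.2 FPKM at 4 h in sta6, and at 2.60 and 7.61 FPKM in CC-4349.

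Between 4 and 48 h, 47 of the 63 genes rose, against 23.8% of all genes tested, and 1 fell, against 28.0%. The median log2 difference was 0.86 for the 63 genes and -0.00 for all genes. Of the 1091 not-recovered genes, 217 were higher and 408 lower at 48 h, with a median of -0.24. Leaving out 1 strain at a time left between 36 and 56 of the 63 genes higher. The fewest came without STA6-C2, against 15.7% of all genes, and the most without sta6, against 26.3%.

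**Figure D3:**
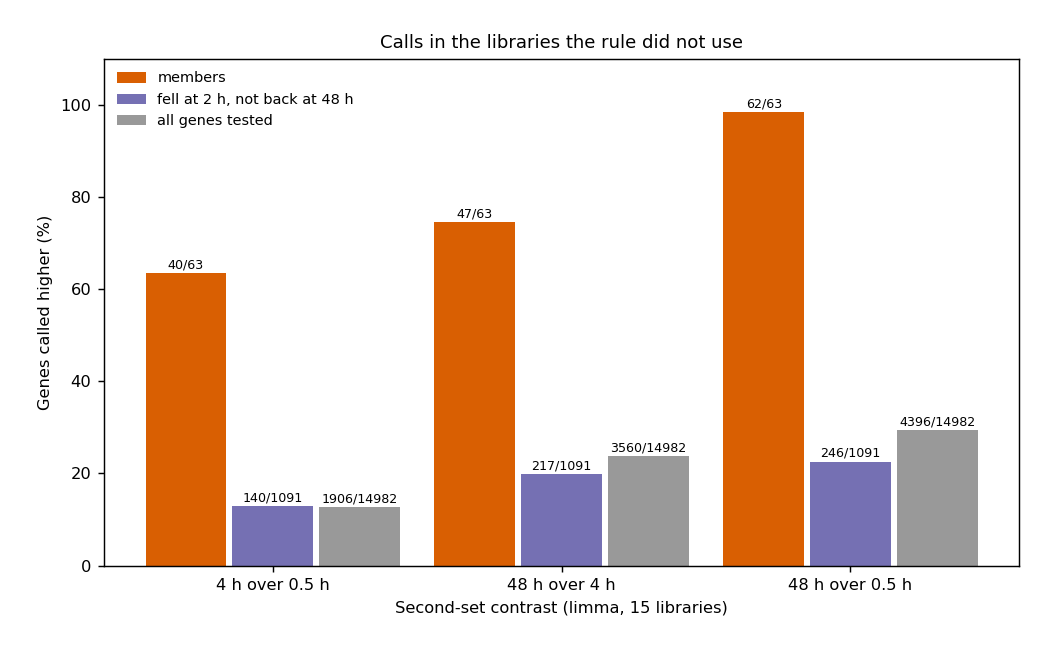
Share (percent, bars) of the 63 genes, of the genes that fell at 2 h but were not back, and of all genes tested that limma called higher in each second-set comparison of times, with the counts above the bars. Called higher were 40 of the 63 genes between 0.5 and 4 h, 47 between 4 and 48 h and 62 between 0.5 and 48 h.

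The 5 largest rises between 4 and 48 h belonged to Cre02.g093600.t1.1, Cre13.g583450.t1.1, Cre12.g517900.t1.1, Cre07.g328000.t1.1 and Cre17.g721450.t1.2, and each was higher at 48 h than at 4 h in all 5 strains. Cre02.g093600.t1.1 had, at 0.5, 4 and 48 h of the second set, 7.19, 11.7 and 69.8 FPKM in sta6, 3.87, 13.4 and 133 in STA6-C2, 7.25, 26.5 and 139 in STA6-C4, 5.23, 27.4 and 171 in STA6-C6 and 6.33, 2.63 and 30.6 in CC-4349. The 48 h values did not overlap those at 4 h, and the difference was 2.76 ± 0.387 (log2, SE; limma, adjusted p = 0.000148). Cre13.g583450.t1.1 had, at 0.5, 4 and 48 h of the second set, 4.43, 8.76 and 89.1 FPKM in sta6, 3.95, 11.2 and 106 in STA6-C2, 7.50, 16.9 and 119 in STA6-C4, 4.17, 26.8 and 116 in STA6-C6 and 69.2, 96.3 and 218 in CC-4349. CC-4349 lay above the other 4 strains at every time, and the difference between 48 and 4 h was 2.46 ± 0.36 (log2, SE; limma, adjusted p = 0.000194).

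Cre12.g517900.t1.1 had, at 0.5, 4 and 48 h of the second set, 11.0, 4.36 and 32.8 FPKM in sta6, 14.7, 7.37 and 38.5 in STA6-C2, 17.7, 10.4 and 36.5 in STA6-C4, 12.1, 10.1 and 42.4 in STA6-C6 and 25.7, 18.7 and 23.9 in CC-4349. Its level was lower at 4 h than at 0.5 h in every strain, and CC-4349 changed least between 4 and 48 h. The difference between 48 and 4 h was 1.78 ± 0.268 (log2, SE; limma, adjusted p = 0.000239). Cre07.g328000.t1.1 had, at 0.5, 4 and 48 h of the second set, 7.20, 16.5 and 31.8 FPKM in sta6, 9.47, 14.0 and 59.8 in STA6-C2, 19.2, 18.7 and 53.5 in STA6-C4, 13.2, 28.9 and 80.4 in STA6-C6 and 5.78, 13.0 and 116 in CC-4349. All 48 h values lay above all 4 h values, with the highest in CC-4349 and the lowest in sta6, and the difference was 1.78 ± 0.308 (log2, SE; limma, adjusted p = 0.000628). Cre17.g721450.t1.2 had, at 0.5, 4 and 48 h of the second set, 9.89, 14.7 and 20.1 FPKM in sta6, 8.64, 6.49 and 44.4 in STA6-C2, 6.35, 11.7 and 35.4 in STA6-C4, 3.48, 7.06 and 55.1 in STA6-C6 and 7.89, 6.05 and 11.7 in CC-4349. Here the rescued strains were highest at 48 h, and sta6 and CC-4349 moved less. The difference was 1.64 ± 0.38 (log2, SE; limma, adjusted p = 0.00386).

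By the pair of successive steps, 0.5 to 4 h and 4 to 48 h, the 63 genes fell into 6 classes. Calls in both steps were upward for 26 genes, among them Cre13.g583450.t1.1, Cre02.g093950.t1.1 and the most abundant of the 63, Cre03.g159500.t1.1. Their median log2 differences were 1.02 for the first step and 1.00 for the second. Cre03.g159500.t1.1 had, at 0.5, 4 and 48 h of the second set, 120.1, 172 and 418 FPKM in sta6, 154, 180.4 and 459 in STA6-C2, 142, 179 and 431 in STA6-C4, 101, 182 and 520.2 in STA6-C6 and 115, 158 and 449 in CC-4349. The strains lay close together at each time, with no overlap between 48 h and the earlier times, and the difference between 48 and 4 h was 1.38 ± 0.122 (log2, SE; limma, adjusted p = 5.36e-06).

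Another 14 genes rose in the first step and were not called in the second, with median log2 differences of 1.44 and 0.34. Cre06.g275100.t1.1, the second most abundant of the 63, belongs here. Cre06.g275100.t1.1 had, at 0.5, 4 and 48 h of the second set, 119, 251 and 107 FPKM in sta6, 60.3, 129 and 136 in STA6-C2, 32.9, 109.7 and 140.0 in STA6-C4, 19.6, 108 and 143 in STA6-C6 and 21.3, 62.7 and 149 in CC-4349. In sta6 its highest level was at 4 h, whereas in the other 4 strains it was at 48 h. The difference between 48 and 4 h was 0.17 ± 0.358 (log2, SE; limma, adjusted p = 0.717). Cre12.g550050.t1.1 is in this class too, and in sta6 it was listed at 0 at 0.5 h.

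A further 20 genes were not called in the first step and rose in the second, with median log2 differences of 0.24 and 1.21. This class holds 4 of the 5 largest late rises: Cre02.g093600.t1.1, Cre12.g517900.t1.1, Cre07.g328000.t1.1 and Cre17.g721450.t1.2. The remaining 3 genes were Cre01.g001750.t1.1, given above, Cre03.g176150.t1.1, which fell in the second step, and Cre12.g525200.t1.1, called in neither. For Cre12.g525200.t1.1 the difference was 0.95 ± 0.319 (log2, SE; limma, adjusted p = 0.0528) in the first step and 0.48 ± 0.319 (log2, SE; limma, adjusted p = 0.228) in the second. Levels at 0.5, 4 and 48 h of the second set were 92.8, 155 and 89.0 FPKM in sta6, 62.2, 80.3 and 121 in STA6-C2, 44.0, 78.4 and 126 in STA6-C4, 18.5, 75.6 and 136 in STA6-C6 and 29.9, 54.9 and 118 in CC-4349. As with Cre06.g275100.t1.1, the sta6 library was highest at 4 h while the others were highest at 48 h. Since classes were formed from these calls, their medians are a description.

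Cre03.g176150.t1.1 went against the rest of the 63 genes. Cre03.g176150.t1.1 had 161, 88.2, 60.3, 82.6, 37.8, 23.4, 98.3 and 179 FPKM in first-set sta6 at 0, 0.5, 2, 4, 8, 12, 24 and 48 h. CC-4349 had 82.4, 45.6, 20.9, 38.7, 65.0, 81.7, 86.7 and 96.3 FPKM of it over the same times. In sta6 this gene had a deeper low at 12 h than at 2 h, and its return came between 12 and 48 h. Its second-set levels at 0.5, 4 and 48 h were 124, 132 and 29.2 FPKM in sta6, 67.6, 183 and 8.58 in STA6-C2, 73.4, 136 and 7.23 in STA6-C4, 42.8, 117 and 2.51 in STA6-C6 and 60.3, 88.7 and 93.3 in CC-4349. The rescued strains and sta6 had their lowest level at 48 h, and CC-4349 its highest. The difference between 48 and 4 h was -3.09 ± 0.594 (log2, SE; limma, adjusted p = 0.00125), with 4 of 5 strains lower. In sta6, a 48 h level above the 0 h level in the first set thus stands beside a 48 h level well below the 4 h level in the second.

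**Figure D4:**
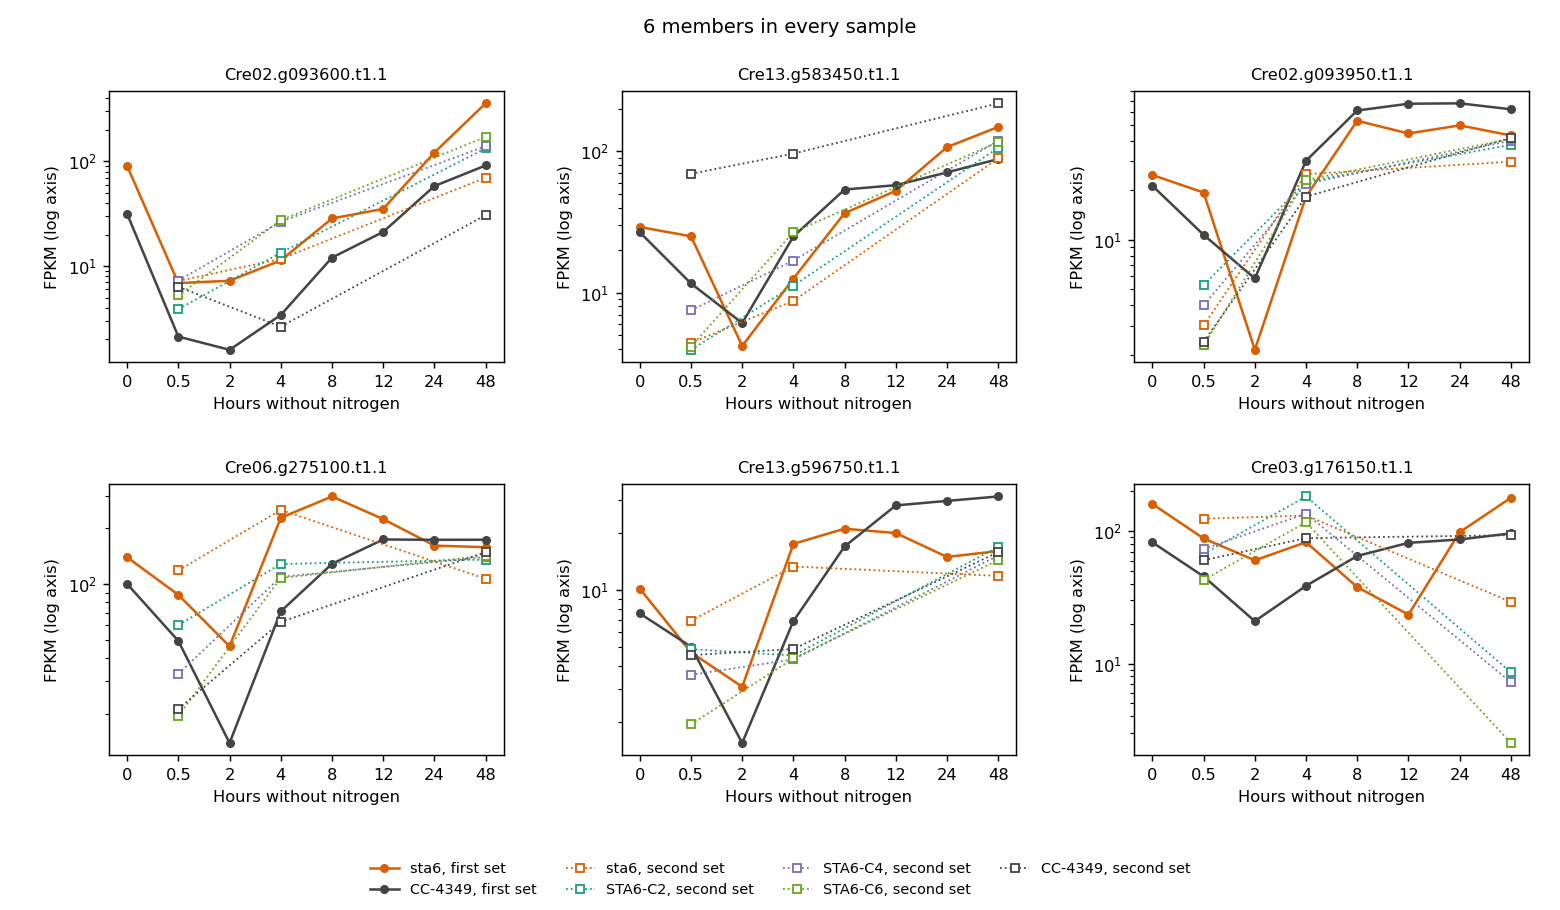
FPKM of 6 of the 63 genes against hours without ammonium in both sets (log axis for FPKM, hours spaced evenly, filled points and solid lines for the first set, open points and dotted lines for the second, 1 sample per point). Cre02.g093600.t1.1 and Cre13.g583450.t1.1 keep increasing to 48 h, Cre02.g093950.t1.1 levels off, Cre06.g275100.t1.1 and Cre13.g596750.t1.1 are at or near their highest at 4 h in second-set sta6, and Cre03.g176150.t1.1 is at 2.51 to 29.2 FPKM at 48 h in second-set sta6 and rescued strains.

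Within the first set, levels at 12 and 24 h were tested against those at 4 and 8 h, times that the selection did not use, with 8 libraries and strain as a block. All 63 genes had a fitted difference above 0, with a median of 0.49 (log2) against 0.01 for all 14814 genes tested. None of the 63 was called higher or lower by limma, as 0% of all genes were in either direction, and 21 of the 63 had an unadjusted p under 0.05. Without the 4 h samples the median was 0.05, with 5 of the 63 under an unadjusted p of 0.05 and none called. Without the 8 h samples it was 0.85, and 32 of the 63 genes were called higher, against 6.76% of all genes in that fit. The size of the difference thus rests on the 4 h samples. Fitted within CC-4349 alone the median was 0.79 and within sta6 alone it was 0.21, and neither fit called any of the 63.

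The late rise was small or lacking in second-set sta6. Between 4 and 48 h, 32 of the 63 genes were higher at 48 h and 31 lower in sta6, with a median log2 difference of 0.05. The numbers higher were 62 in each of STA6-C2, STA6-C4 and STA6-C6 and 61 in CC-4349, with medians of 0.95, 1.10, 1.08 and 1.09. Of the 6895 genes, 30.0% were higher at 48 h than at 4 h in sta6, 44.7% in STA6-C2, 40.3% in STA6-C4, 42.3% in STA6-C6 and 51.6% in CC-4349, so sta6 was the lowest of the 5 strains for genes in general too. For 55 of the 63 genes (87.3%) the log2 difference between 48 and 4 h was smaller in sta6 than in each rescued strain, against 52.6% of the 6895, and for 57 it was smaller in sta6 than in CC-4349, against 73.8%. Of the 31 genes lower at 48 h than at 4 h in second-set sta6, 30 were among the 48 that were lower at 24 h than at 8 h in first-set sta6. Those 48 are most of the 63 genes to begin with, and the overlap was not counted over the 6895 genes. Second-set sta6 is 1 sample per time.

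**Figure D5:**
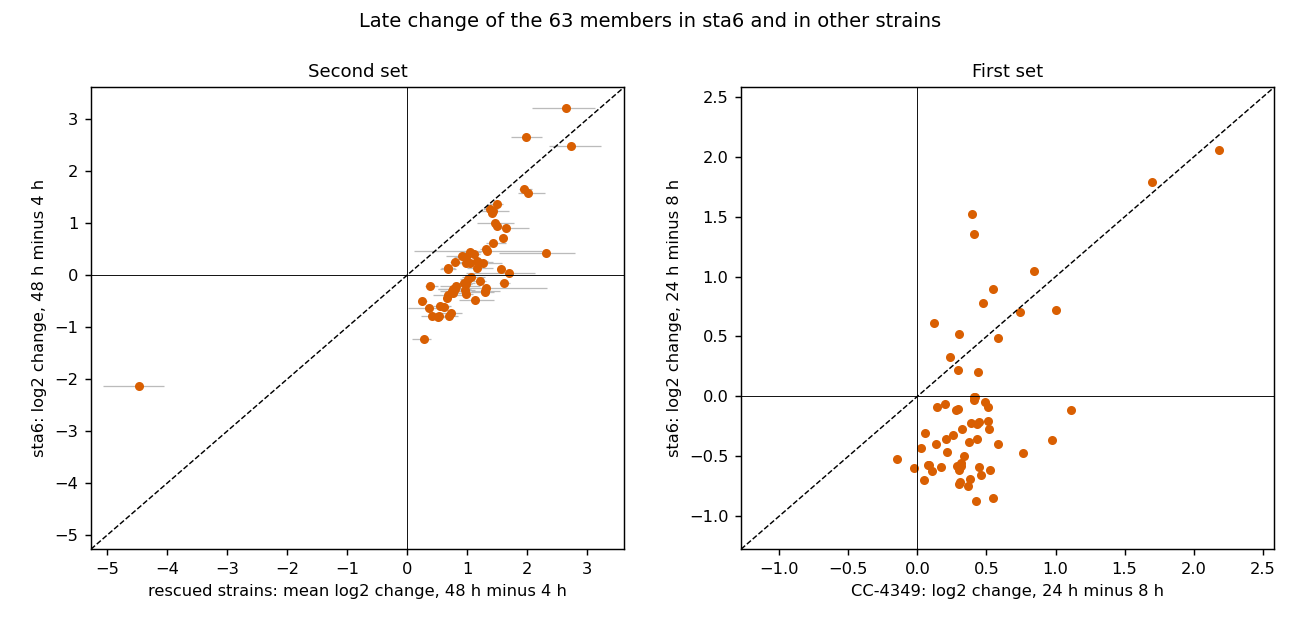
Late log2 differences of the 63 genes (1 point each): on the left 48 h minus 4 h in second-set sta6 against the mean over the 3 rescued strains, with horizontal lines for the range of those strains, and on the right 24 h minus 8 h in first-set sta6 against CC-4349. Points below the dashed line of equality had the smaller difference in sta6, as for 54 of the 63 genes on the right, and the lone point at the lower left is Cre03.g176150.t1.1.

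The difference itself was tested as an interaction, the log2 difference between 48 and 4 h in sta6 minus that in the rescued strains. It was below 0 for 60 of the 63 genes, with a median of -1.01 against -0.18 for all genes. By limma 2 of the 63 were called lower, against 1.09% of all genes, and 1 higher, against 1.24%, while 33 had an unadjusted p under 0.05. Of all called genes 53.1% were higher, and 80.5% with columns set to equal medians. Under that scaling the median over all genes was 0.05 and that over the 63 genes -0.78. It called 1 of the 63 each way, against 0.507% of all genes lower and 2.10% higher. Without STA6-C6, 5 of the 63 were called lower, against 0.718% of all genes, and 1 higher, against 0.927%. Without STA6-C4 it was 1 each way, against 2.49% of all genes lower and 1.58% higher. At single genes, then, most of the shift did not pass the test with 1 sta6 library per time. The spread in that test came from the rescued strains alone.

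Cre13.g596750.t1.1 had, at 0.5, 4 and 48 h of the second set, 6.90, 13.4 and 11.9 FPKM in sta6, 4.88, 4.52 and 17.0 in STA6-C2, 3.57, 4.31 and 15.3 in STA6-C4, 1.95, 4.36 and 14.5 in STA6-C6 and 4.54, 4.89 and 15.9 in CC-4349. The rescued strains at 4 h lay between 4.31 and 4.52 FPKM, and sta6 at 13.4 FPKM stood far above them, while at 48 h sta6 lay below them. The difference in change was -1.77 ± 0.333 (log2, SE; limma, adjusted p = 0.0308). Cre01.g012350.t1.1 had, at 0.5, 4 and 48 h of the second set, 1.83, 5.41 and 3.94 FPKM in sta6, 0.984, 2.43 and 6.28 in STA6-C2, 0.574, 2.39 and 5.54 in STA6-C4, 0.313, 2.66 and 5.89 in STA6-C6 and 1.03, 1.94 and 5.08 in CC-4349. As for Cre13.g596750.t1.1, sta6 was above the rescued strains at 4 h and below them at 48 h. The difference in change was -1.36 ± 0.274 (log2, SE; limma, adjusted p = 0.0388). For Cre03.g176150.t1.1, which fell more in the rescued strains than in sta6, it was 2.33 ± 0.378 (log2, SE; limma, adjusted p = 0.0238). The calls of Cre13.g596750.t1.1 and Cre03.g176150.t1.1 were lost with a pseudocount of 0.1 and without the filter, that of the first also without STA6-C4, and that of Cre01.g012350.t1.1 in 8 of 9 alternatives.

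At single times of the second set, sta6 was above the rescued strains early and below them late. It was higher than each of the 3 rescued strains for 41 of the 63 genes at 0.5 h, 47 at 4 h and 2 at 48 h, against 48.9%, 35.6% and 18.4% of the 6895 genes. It was lower than each of them for 6, 8 and 59 of the 63 genes, against 27.5%, 30.0% and 57.4%. The medians of the 63 genes at 0.5, 4 and 48 h were 7.20, 12.9 and 17.0 FPKM in sta6, 5.47, 10.7 and 20.4 in STA6-C2, 5.65, 9.46 and 22.4 in STA6-C4, 2.97, 10.4 and 22.2 in STA6-C6 and 4.66, 9.33 and 20.9 in CC-4349. STA6-C6 stood apart at 0.5 h: it was below the other rescued strains for 53 of the 63 genes, against 37.8% of the 6895.

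Averaged over the 3 times, sta6 and the rescued strains were not told apart at single genes. In this comparison and in that against CC-4349 below, the 3 times stand in for replicates of a strain. The spread comes from the times and the rescued lines, not from repeat samples of sta6 or CC-4349 at a time. None of the 63 was called higher in sta6, against 0.354% of all genes, and none lower, against 0.387%. By limma 7 had an unadjusted p under 0.05, and the median log2 difference was 0.26 for the 63 genes and -0.03 for all. Without the 48 h samples the median was 0.58, and 10 of the 63 were called higher in sta6, against 2.91% of all genes. Without the 0.5 h samples it was 0.12 and without the 4 h samples 0.07, with none called. Of all called genes 47.7% were higher in sta6, and 68.6% with columns set to equal medians.

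Against CC-4349, averaged over the 3 times, 4 of the 63 genes were higher in sta6, against 11.1% of all genes, and 3 lower, against 15.6%, both shares below those of all genes. The median log2 difference was 0.30 for the 63 genes. The direction over all genes moved with the scaling, with 41.6% of called genes higher in sta6 and 55.9% with equal medians, where 10 of the 63 were called higher, against 17.7% of all genes. Without the 48 h samples 23 of the 63 were called higher, against 26.6% of all genes, and without the 4 h samples 1 was, against 3.20%. The number lower was 1 without the 4 h samples, against 5.78% of all genes, and 1 without STA6-C4, against 11.9%. These counts thus rest on which samples enter.

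The genes higher in sta6 than in CC-4349 were Cre09.g403400.t1.1, Cre17.g737900.t1.1, Cre06.g275100.t1.1 and Cre10.g421200.t1.2. Cre09.g403400.t1.1 had, at 0.5, 4 and 48 h of the second set, 3.94, 12.6 and 9.84 FPKM in sta6, 2.25, 4.01 and 12.7 in STA6-C2, 1.45, 4.05 and 12.3 in STA6-C4, 0.752, 5.76 and 12.9 in STA6-C6 and 0.313, 0.329 and 3.39 in CC-4349. CC-4349 lay below every other strain at every time, and sta6 was higher by 2.19 ± 0.35 (log2, SE; limma, adjusted p = 0.000476). Cre17.g737900.t1.1 had, at 0.5, 4 and 48 h of the second set, 12.5, 25.2 and 26.0 FPKM in sta6, 10.6, 12.7 and 26.0 in STA6-C2, 7.05, 8.93 and 38.6 in STA6-C4, 6.63, 3.17 and 17.2 in STA6-C6 and 6.24, 4.16 and 7.73 in CC-4349. Here too sta6 was above CC-4349 at all 3 times, by 1.63 ± 0.456 (log2, SE; limma, adjusted p = 0.0181). The difference of Cre06.g275100.t1.1 was 1.31 ± 0.455 (log2, SE; limma, adjusted p = 0.0472), with sta6 above CC-4349 at 0.5 and 4 h and below it at 48 h. That of Cre10.g421200.t1.2 was 0.90 ± 0.252 (log2, SE; limma, adjusted p = 0.0175).

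The genes lower in sta6 than in CC-4349 were Cre13.g583450.t1.1, Cre02.g137950.t1.2 and Cre13.g574600.t1.1. Cre13.g583450.t1.1 differed by -2.76 ± 0.455 (log2, SE; limma, adjusted p = 0.000605), and the rescued strains shared the lower level of sta6 at all 3 times. Cre02.g137950.t1.2 had, at 0.5, 4 and 48 h of the second set, 0.265, 1.29 and 5.84 FPKM in sta6, 0.0924, 0.707 and 5.29 in STA6-C2, 0.149, 1.07 and 6.43 in STA6-C4, 0.128, 0.523 and 6.50 in STA6-C6 and 2.43, 9.47 and 6.42 in CC-4349. Its difference was -1.25 ± 0.367 (log2, SE; limma, adjusted p = 0.0228), and sta6 and the rescued strains stood together well below CC-4349 at 0.5 and 4 h but not at 48 h. Cre13.g574600.t1.1 had, at 0.5, 4 and 48 h of the second set, 2.31, 11.5 and 9.74 FPKM in sta6, 5.02, 11.0 and 14.0 in STA6-C2, 3.37, 11.0 and 13.7 in STA6-C4, 2.97, 11.3 and 16.6 in STA6-C6 and 5.91, 15.7 and 14.3 in CC-4349. Its difference was -0.66 ± 0.188 (log2, SE; limma, adjusted p = 0.0187), and it was lower in sta6 at all 3 times. Without the 0.5 h samples, and likewise without the 4 h samples, the calls against CC-4349 of Cre17.g737900.t1.1, Cre06.g275100.t1.1, Cre10.g421200.t1.2, Cre02.g137950.t1.2 and Cre13.g574600.t1.1 were lost. Without STA6-C4 those of Cre06.g275100.t1.1, Cre02.g137950.t1.2 and Cre13.g574600.t1.1 were lost, without STA6-C2 those of Cre06.g275100.t1.1 and Cre02.g137950.t1.2, and without STA6-C6 that of Cre06.g275100.t1.1. The calls of Cre09.g403400.t1.1 and Cre13.g583450.t1.1 held with each of these left out. This covers the second set alone, since levels of single genes were not compared between strains in the first set.

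Locus tags of the RefSeq annotation of assembly Chlamydomonas_reinhardtii_v5.5 matched 50 of the 63 IDs and 12666 of the 17301 (73.2%). The 50 lay on 14 chromosomes or other sequences, with at most 8 on one, and no 2 of them were neighbours. The remaining IDs were not located. The closest pair, Cre12.g528900.t1.1 and Cre12.g528950.t1.1, was 2 steps apart in gene order. In second-set sta6 at 0.5, 4 and 48 h Cre12.g528900.t1.1 had 12.2, 34.3 and 29.6 FPKM and Cre12.g528950.t1.1 3.73, 25.0 and 22.9 FPKM, and both rose between 0.5 and 4 h, by 1.84 ± 0.272 and 2.22 ± 0.251 (log2, SE; limma).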

How the data were processed

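RNA sequencing values of 31 samples were grouped by labelled strain and time, and by the library set that titles give. Values are FPKM as far as can be told, a normalized read number that the authors deposited per gene whose unit no header names, so it may equally be RPKM. Per the submitters' processing notes Bowtie was used. Its version, and the build, annotation and counter, are not given in the sources here. The first-set samples had 2 columns each, treated as repeat runs and averaged.

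Tests used log2(FPKM + 1), a scale that understates changes of low genes, with limma 3.58.1 under R 4.3.3 (trended prior, robust estimation), on genes reaching 1 FPKM in 3 or more of the libraries fitted, and adjusted p-values by Benjamini-Hochberg over all genes tested, with a threshold of 0.05. Times were compared with strain as a block, and strains with time as a block. In the latter, the times of a strain stand in for its replicates. No source ties samples to separate cultures, so p-values reflect only how these samples vary, which may be technical. The fits were also run on simulated data with independent errors and no strain or time effects beyond the changes put in. Such data cannot show whether strains or times can stand in for replicates. Other tables and figures were made with Python 3.11.15, numpy 2.4.6, pandas 2.3.3 and matplotlib 3.10.9.

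The members and lists were chosen with earlier results of these data known. The text names the 8 genes with the largest mean rise between 2 and 48 h, up to 5 called genes each way for 48 against 4 h, up to 3 each way for the other comparisons, the genes nearest each limit of the selection and the 2 of highest mean level; Cre01.g001750.t1.1, Cre12.g525200.t1.1, Cre12.g550050.t1.1, Cre10.g421200.t1.2 and the closest pair in the genome were added after their values were seen. Planned lists of genes by function and promoter motifs were not used, since the IDs carry no names here. Alternatives were other pseudocounts (0.1 and 5), no filter, quantile normalization, limma without trend, samples left out and, chosen after seeing the data, equal column medians.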

Additional observations from a re-analysis of the deposited data

Results flagged for a closer look

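A test of the difference itself called 3 of the 63 genes in the second set. The difference was that in log2 between 48 and 4 h in sta6 minus that in the rescued strains. Of the 63, 2 were called lower, against 1.09% of all genes, and 1 higher, against 1.24%. With a pseudocount of 0.1 or without the filter, 0 were called, and the call of Cre01.g012350.t1.1 was lost in 8 of 9 alternatives. Cre13.g596750.t1.1 differed by -1.77 and Cre01.g012350.t1.1 by -1.36, with a smaller late rise in sta6, which in sta6 itself was no rise: both were lower at 48 h than at 4 h there. Cre03.g176150.t1.1 differed by 2.33, falling less in sta6 than in the rescued strains. The sta6 side of each is 1 library per time and adds nothing to the spread, which comes from the rescued strains alone.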

How the results depend on the processing

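Of the 63 genes, between 42 and 53 were called higher at 48 h than at 4 h with all strains or the rescued strains alone. Of all genes, 19.1% to 32.3% were called higher in those alternatives. With 1 strain left out it was 36 to 56 of the 63, against 15.7% to 26.3% of all genes. Called higher at 48 h than at 0.5 h were 60 to 62, against 24.0% to 34.7% of all genes. No replicate block for strain gave 42 at 48 against 4 h and 37 at 4 against 0.5 h, where 19.1% and 8.72% of all genes were called higher. The number lower at 4 h than at 0.5 h was 4 in the rescued strains alone, against 21.1% of all genes. With 1 strain left out it was 0 to 4, the 4 without CC-4349 against 16.9%. With 1 time left out, 0 to 32 were called higher at 12 and 24 h than at 4 and 8 h, the 32 against 6.76% of all genes. With 1 time or strain left out, 0 to 10 were called higher in sta6 than in the rescued strains. Against CC-4349, 1 to 23 were called higher in sta6 and 1 to 4 lower. The largest of these counts came without the 48 h samples. There they stood against 2.91%, 26.6% and 16.0% of all genes. Quantile normalization gave 7 higher in sta6 than in CC-4349, against 16.3% of all genes, and equal medians 10, against 17.7%. The interaction called 0 with a pseudocount of 0.1, 10 with a pseudocount of 5 and 0 without the filter. With 1 rescued strain left out it called 2 to 6, the most without STA6-C6. Of all genes, 1.97% were called lower and 1.29% higher with a pseudocount of 5. Without STA6-C6 it was 0.718% lower and 0.927% higher. The selection itself gave 21 genes with a pseudocount of 5, 96 with a fall to 1/2 and 12 with a fall to 1/4 of the 0 h value. With a pseudocount of 0.1 or a floor of 1 FPKM it gave 74, all 63 among them. The first run of each pair alone gave 52 genes, of which 46 were among the 63. The second run alone gave 63, of which 50 were. Of all called genes at 4 against 0.5 h, 56.7% were higher, and 46.2% with equal medians. No result on the 63 genes changed sign, while medians over all genes that lay near 0 did, as at 4 against 0.5 h (0.03, and -0.01 with equal medians). Of 159 alternatives for 15 results on single genes, 135 kept their side of the threshold and 24 lost the call. The causes were not tested. With 1 sample per strain, time and set, unknown depth and no repeat of the 2 h samples outside the first set, the dip rests on 1 sample per strain.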
